A study of Mus musculus with 3 samples.

Results

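The major urinary protein (Mup) family was followed through 10 genes, Mup1, Mup2, Mup3, Mup7, Mup10, Mup11, Mup14, Mup17, Mup20 and Mup21, of 55357 genes in single-cell libraries of mouse liver. These members were chosen by values measured in these same libraries, namely their levels in hepatocytes, in T cells and along the liver lobule, so what follows on those levels is a description without a test. A further 39 rows carry a Mup symbol. The libraries came from wild-type male C57BL/6 mice that were 8 weeks old at the start. In the control library the mice were untreated, in the high-fat diet library (HFD) they received for 4 months a diet with 60% of its calories from fat, and in the CCl4 library they received chow for 3 months and then 0.1 mL of 10% carbon tetrachloride into the peritoneum 2 times a week for 4 weeks. Each library pooled 2 mice, and hepatocytes and nonparenchymal cells obtained by collagenase perfusion were mixed in equal parts. With 1 library per condition, an effect of diet or toxin, of the mice that were pooled and of the preparation cannot be told apart. Intervals below are exact 95% intervals and cover counting error only.

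Major urinary proteins are small secreted lipocalins, barrel-shaped carriers that bind volatile pheromones. The liver of adult male mice makes them in large amounts, and they leave through the kidney into urine, where they mark territory and identity. Pulsatile growth hormone, acting through its receptor, JAK2 and STAT5, and glucocorticoids and androgens are known to sustain their transcription. Hepatocytes differ along the lobule. Periportal cells near the incoming blood carry out gluconeogenesis and urea synthesis, and pericentral cells near the outgoing vein carry out glutamine synthesis and much of the metabolism of foreign compounds.

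All 10 members lie on the minus strand of chromosome 4 between positions 60066469 and 62150863 of GRCm38 (GENCODE M21), a stretch of 2084 kb. The near-identity of some members bears on every count below. Transcripts of Mup1, Mup2, Mup7, Mup10, Mup11, Mup14 and Mup17 were 98.3% to 99.6% identical in their 21 pairs, whereas a transcript of these 7 and one of Mup3, Mup20 or Mup21 shared 83.9% to 91.2%. In the last 400 bases, where a 3′ library reads, a window of 90 bases was found in no other gene's transcript at 100% of the positions of Mup3 and Mup21, 87.8% of Mup20, 70.1% of Mup17 and 41.2% of Mup11. The same share was 0.965% for Mup7 and 0 of 311 windows for Mup1, Mup2, Mup10 and Mup14. The counts of these last 5 members are therefore uncertain, since reads that match several genes are not assigned to one, and only Mup3, Mup11, Mup17, Mup20 and Mup21 are read as single genes.

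RefSeq promoters (GRCm38.p6) were on hand for 8 of the 10 members, without Mup1 and Mup20. The 250 bases upstream of the annotated start are printed for Mup11, Mup17, Mup3 and Mup21. Among members read as single genes, Mup11 and Mup17 had the largest control ratio of pericentral to periportal level. Mup3 and Mup21 were higher in CPM with CCl4 than in control. Capitals mark matches to the Onecut element ATTGAT on either strand (here read as ATCAAT). The windows are chr4:60662396-60662645, chr4:61595833-61596082, chr4:62087318-62087567 and chr4:62150842-62151091, all on the minus strand and written 5′ to 3′.
Mup11: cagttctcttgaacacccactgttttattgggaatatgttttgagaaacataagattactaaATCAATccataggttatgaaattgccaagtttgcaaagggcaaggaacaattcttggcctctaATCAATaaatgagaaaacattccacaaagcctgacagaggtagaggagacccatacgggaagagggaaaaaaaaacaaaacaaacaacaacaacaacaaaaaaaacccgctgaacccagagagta
Mup17: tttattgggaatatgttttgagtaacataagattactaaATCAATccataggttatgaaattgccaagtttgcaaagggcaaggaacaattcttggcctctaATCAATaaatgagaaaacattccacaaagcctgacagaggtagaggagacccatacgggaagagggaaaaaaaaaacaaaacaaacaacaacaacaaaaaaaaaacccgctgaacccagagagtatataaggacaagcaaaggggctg
Mup3: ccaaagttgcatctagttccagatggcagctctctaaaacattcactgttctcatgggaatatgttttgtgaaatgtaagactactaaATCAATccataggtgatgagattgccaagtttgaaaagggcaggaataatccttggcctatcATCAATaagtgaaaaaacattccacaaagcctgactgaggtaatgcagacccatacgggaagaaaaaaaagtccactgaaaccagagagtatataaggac
Mup21: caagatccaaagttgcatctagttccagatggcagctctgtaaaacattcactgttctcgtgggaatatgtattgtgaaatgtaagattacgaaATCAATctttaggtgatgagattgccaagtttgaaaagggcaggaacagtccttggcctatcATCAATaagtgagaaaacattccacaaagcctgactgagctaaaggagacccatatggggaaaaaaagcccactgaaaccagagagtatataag
All 8 promoters held 2 matches to ATTGAT, against 1 or more in 7.76% of 27025 promoters of the same 300 bases. None held the STAT5 element TTCNNNGAA (8.47% of all promoters), TATAAA (14.2%), the C/EBP element TTGCNNAA (10.8%), the FOXA element TGTTTAC (3.55%) or a glucocorticoid response element. Only exact matches to these letters were counted, on both strands of this window only. The printed Mup17, Mup3 and Mup21 sequences hold tatataag, which was not counted. The absence of TATAAA thus does not mean that these promoters lack a near form of it. The glucocorticoid response element, as searched, was held by 1 of 27025 promoters (0.0037%), so its absence from these 8 decides nothing. Aligned bases of Mup11 and Mup17 were 99.6% identical, those of Mup3 and Mup21 93.4%, and those of Mup11 and Mup3 86.5%. Over all pairs of the 8 promoters the range was 82.4% to 99.6%. The matches and absences they share are therefore not 8 separate observations to set against all promoters.

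The 3 libraries held 11245, 12984 and 12761 barcodes with medians of 2939, 2336 and 2173 UMIs, and any pair shared at most 52 barcodes. Hepatocytes were taken as hepatocyte-like cells with 3 to 30% mitochondrial UMIs and no UMI of the leukocyte gene Ptprc, which left 1204 control, 836 HFD and 2302 CCl4 cells with medians of 8414, 3610 and 3112.5 UMIs. They came from different clusters, since cluster 6 held 98.8% of the control cells, clusters 13 and 16 held 54.9% and 43.1% of the HFD cells and cluster 3 held 92.7% of the CCl4 cells. Of 12 hepatocyte markers, 12, 11 and 9 had a higher share of UMIs in hepatocytes than in T cells of control, HFD and CCl4. Of 10 T cell markers, 0 were higher in hepatocytes in any library. The same lists were used to name the clusters, so these counts are no separate check of the cell label. Droplets also hold free RNA that did not come from their cell, and T cells, which are not known to make these proteins, served as its measure. The control library stood apart in acute-phase genes: the hepatocyte level of Saa1, a serum amyloid, was 11272 CPM (UMIs of the gene scaled to a common total) against 521 with HFD and 171 with CCl4.

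In control hepatocytes the 10 members together took 3.00% of all UMIs, and Mup20 and Mup3 made up 90.5% of that. Reads shared by near-identical members are not in this sum, so it can be too low and the share of Mup20 and Mup3 too high. The same limit holds for every sum of the members below. Levels are given in CPM, the share of a group's UMIs that came from a gene, scaled so that 10000 CPM is 1%. UMIs count molecules from one end, so levels were not divided by gene length. Mup20, which encodes the male pheromone darcin, was at 15618 (15544 to 15693) in control, 14355 with HFD and 9101 with CCl4. Mup3 was at 11509 in control, 9458 with HFD and 16304 with CCl4. Mup20 was thus the higher of the pair in control and HFD and the lower with CCl4: the ratio of Mup20 to Mup3 was 1.36 (1.35 to 1.37), 1.52 (1.496 to 1.54) and 0.558 (0.553 to 0.563).

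Mup11 and Mup17 came next in control, and they differed most between the libraries. Mup11 was at 1608 (1584 to 1632) CPM in control, 285 (267 to 304) with HFD and 10.7 (8.61 to 13.1) with CCl4. Mup17 was at 902 (884 to 920) in control, 135 (122 to 148) with HFD and 4.94 (3.56 to 6.67) with CCl4. No interval of either gene overlapped another. Against control, Mup11 was 5.65-fold (5.28 to 6.04) lower with HFD and 150.3-fold (122 to 187) lower with CCl4, and Mup17 was 6.70-fold (6.08 to 7.39) and 183-fold (135 to 254) lower. Among cells with at least 5% mitochondrial UMIs, Mup11 and Mup17 were 3.58-fold and 3.99-fold lower with HFD and Mup17 was 293-fold lower with CCl4. For each UMI of Mup17 there were 1.78 (1.74 to 1.83) UMIs of Mup11 in control, 2.11 (1.88 to 2.38) with HFD and 2.17 (1.49 to 3.20) with CCl4.

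Mup21, like Mup3, was higher in CPM with CCl4 than in control. It was at 105 (98.6 to 111) CPM in control, 87.4 (77.5 to 98.2) with HFD and 284 (273 to 296) with CCl4, 2.72-fold (2.53 to 2.92) above control. T cells also held more Mup21 with CCl4, at 268 CPM against 54.9 in control and 97.6 with HFD. The part of free RNA in the hepatocyte difference was not tested. In UMIs per hepatocyte the direction of Mup3 was the reverse, with 102.7 in control and 60.3 with CCl4. Those of Mup21 were 0.934 and 1.05. Depth enters these values, since the median hepatocyte held 8414 UMIs in control and 3112.5 with CCl4. The members with few distinctive windows had low counts throughout. Reads they share with other genes are not counted, so these values can be too low by an unknown amount. Mup7 was at 129.8, 27.5 and 17.6 in control, HFD and CCl4, and Mup1 at 41.7, 11.4 and 17.3. Mup14 was at 41.8, 24.7 and 5.05, and Mup10 at 6.52, 6.49 and 4.11. Mup2 had 9, 2 and 10 UMIs in all hepatocytes of the 3 libraries. Their order by level in control, Mup14 and Mup1 included, cannot be separated beyond counting error for that pair, whose intervals overlap.

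**Figure D1:**
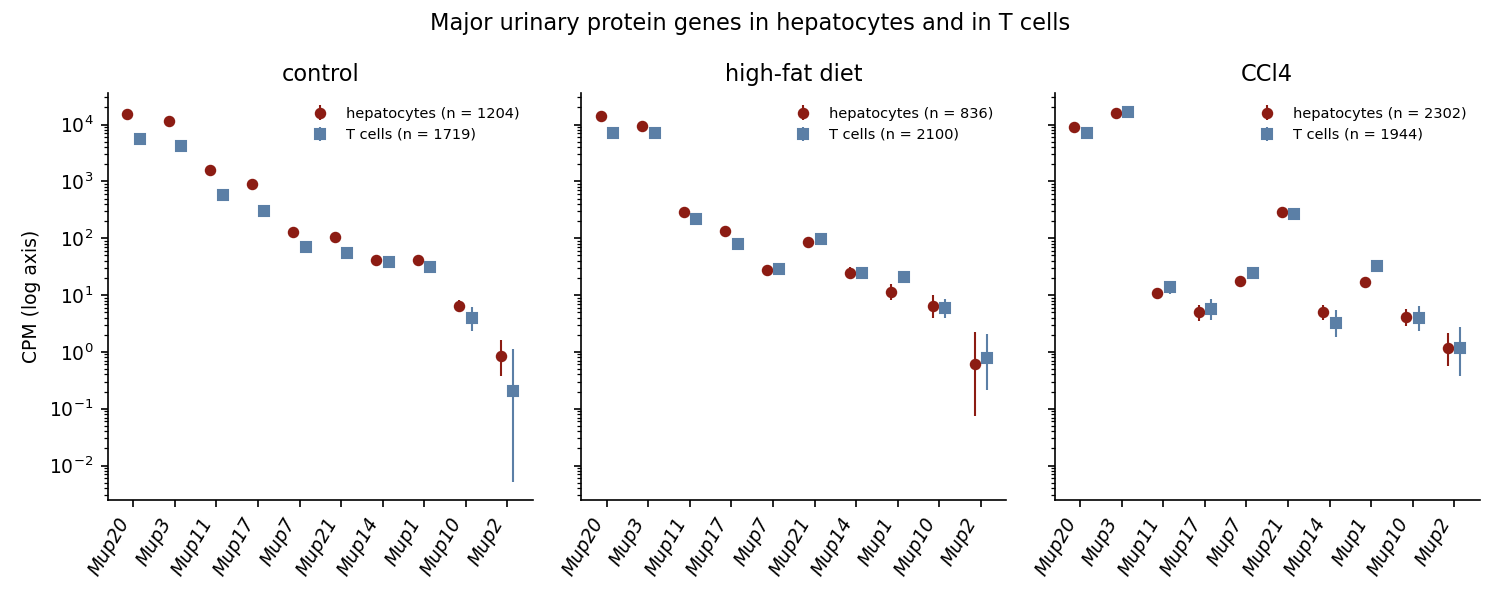
Level of each member in CPM (log axis) in hepatocytes (circles) and T cells (squares) of the 3 libraries, with exact 95% counting intervals. Mup20 and Mup3 lie highest in every panel, and Mup11 and Mup17 drop from 1608 and 902 in control hepatocytes to 10.7 and 4.94 with CCl4.

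A count of members past 2-fold was set beside the same count over all genes with a mean of at least 10 CPM in the groups compared, which 8 of the 10 members reached (all but Mup2 and Mup10). With HFD, 0 of 8 members were at least 2-fold higher, where 6.88% of all genes were, and 4 were at least 2-fold lower (Mup1, Mup7, Mup11 and Mup17), where 5.08% were. With CCl4, 1 member (Mup21) was higher, against 6.73% of all genes, and 5 were lower (Mup1, Mup7, Mup11, Mup14 and Mup17), against 6.25%. Mup14 and Mup17 were under 10 CPM with CCl4 and passed the minimum through the control library alone, so their part in that count is no support. When cells under 3% mitochondrial UMIs were let in, Mup1 was 1.65-fold lower with HFD and 1.44-fold lower with CCl4, short of 2-fold. That setting let in 232 control, 5423 HFD and 5243 CCl4 cells, since a low-mitochondrial cluster with 3405 control cells got no name. Its ratios between libraries thus compare unlike sets of cells. The median log2 ratio of the tested members was -1.31 with HFD and -2.08 with CCl4, beside 0.13 and 0.06 over all genes. Since the members lower in both comparisons are near-identical in sequence and share the control library, they are not separate observations. Summed over the family, the level was 29962 CPM in control, 24391 with HFD and 25750 with CCl4, ratios to control of 0.814 and 0.859. The size of this difference depended on the measure. In UMIs per cell the ratios were 0.353 and 0.356. Depth enters these, with medians of 8414, 3610 and 3112.5 UMIs per hepatocyte in control, HFD and CCl4. The ratios were 0.507 and 0.0867 with the T cell CPM subtracted from the hepatocyte CPM. Per droplet, hepatocytes held 236.8, 59.4 and 42.4 more UMIs of the members than T cells. With CCl4 the ratio was 1.04 when cells under 3% mitochondrial UMIs were let in.

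The level in T cells was high and differed between the libraries, which bears on all of these values. T cells held 10727 CPM of the summed members in control, 14634 with HFD and 24082 with CCl4, or 0.358, 0.600 and 0.935 of the hepatocyte level in the same library. Per droplet, hepatocytes held 267, 94.5 and 95.2 UMIs of the members and T cells 30.5, 35.1 and 52.8. The median over 20 other secreted liver proteins was 0.247, 0.619 and 0.706, so other secreted proteins were also present in T cells at a large part of the hepatocyte level, such as Alb at 0.156, 0.468 and 0.563. This T cell level was not removed from the hepatocyte values. It may not be free RNA alone. Single control T cells held up to 9.32% of their UMIs in the members, beside a median of 0.627%. Leaving out the highest doublet scores lowered the ratio of T cells to hepatocytes, most in control (values below). Whether droplets that also held a hepatocyte added to the T cell level was not tested.

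The 4 most abundant members took similar shares of the family's UMIs in T cells and hepatocytes of the control library, and 4 of the less abundant took larger shares in T cells. Mup20, Mup3, Mup11 and Mup17 made up 52.1%, 38.4%, 5.37% and 3.01% of the members' UMIs in hepatocytes and 51.2%, 38.8%, 5.27% and 2.85% in T cells. Mup7 made up 0.433% in hepatocytes and 0.667% in T cells, Mup21 0.349% and 0.512%, Mup14 0.140% and 0.350% and Mup1 0.139% and 0.292%, without overlap of the intervals. With CCl4, Mup3 was 63.3% of the members' UMIs in hepatocytes and 69.2% in T cells. In that library Mup3 was at 16675 CPM in T cells, above the 16304 of hepatocytes, and Mup21 was at 268 against 284. Mup11 in T cells followed the order of the libraries seen in hepatocytes, with 566 in control, 220 with HFD and 13.8 with CCl4. For Mup3 the order differed, since T cells held 4163 in control and 7095 with HFD while control was above HFD in hepatocytes. In CPM the CCl4 hepatocytes did not exceed the T cells for Mup3, Mup11 or Mup17 (4.94 against 5.63). For Mup11 and Mup17 the intervals of the ratio of T cells to hepatocytes included equal levels (0.916 to 1.82 and 0.661 to 1.93). In UMIs per droplet these hepatocytes held more than T cells: 60.3 against 36.6 for Mup3, 0.0395 against 0.0303 for Mup11 and 0.0182 against 0.0123 for Mup17.

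A T cell with a UMI of Mup3 or Mup20 was the rule: 99.8% and 99.6% of control T cells had one, and 100% of both with HFD and CCl4. After thinning each cell to 1000 UMIs, 42.5% of control hepatocytes had a UMI of Mup11 and 39.3% of control T cells did. The unthinned shares were 68.9% and 69.2%. For HFD the thinned shares were 21.4% and 20.1%, and for CCl4 0.941% and 1.39%. The hepatocyte shares were little above those of T cells in control and HFD and below them with CCl4, so a single UMI of Mup11 does not mark a cell that makes it. No cell was left out for being under 1000 UMIs.

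Single cells varied widely. The members took a median of 2.64% of the UMIs of a control hepatocyte, with the 10th and 90th percentiles at 1.64% and 4.36%, and 0.627% of those of a control T cell. With HFD the medians were 1.90% and 1.36%. With CCl4 the T cell median of 2.38% exceeded the hepatocyte median of 2.26%, but hepatocytes spread further, from 1.19% to 4.07% against 1.72% to 3.16% between the same percentiles. In control, the 10% of hepatocytes with the most UMIs of a gene held 81.6% of Mup17 and 55.2% of Mup11, but 37.0% of Mup20 and 28.9% of Mup3.

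**Figure D2:**
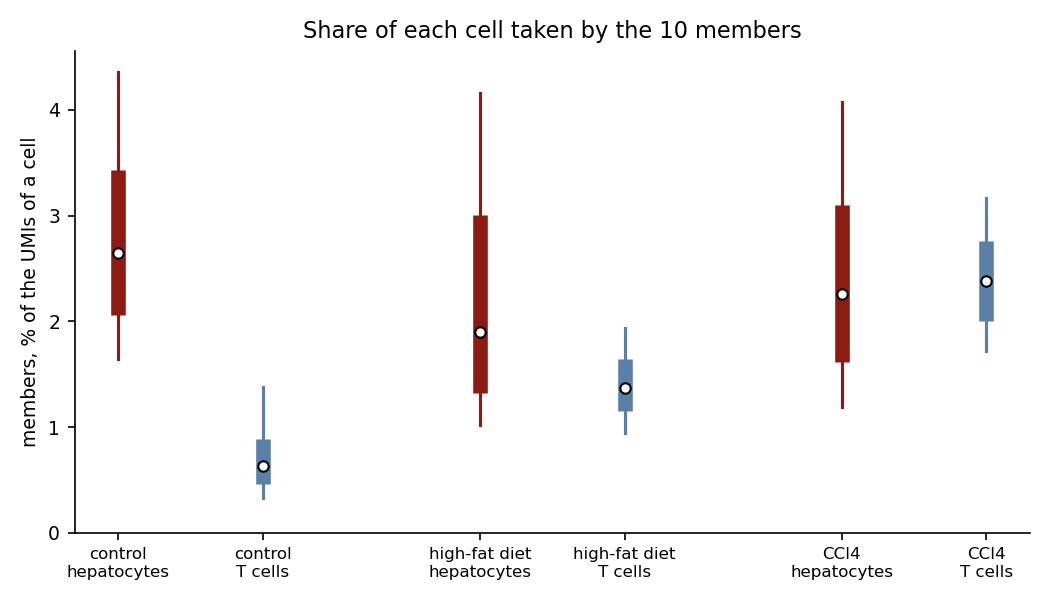
Percent of the UMIs of each cell that came from the 10 members, in hepatocytes and T cells of each library; circles are medians, thick bars run from the 25th to the 75th percentile and thin bars from the 10th to the 90th. The hepatocyte and T cell medians were 2.64% and 0.627% in control and 2.26% and 2.38% with CCl4.

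Mup11 and Mup17 on one side and Mup20 and Mup3 on the other had opposite positions along the lobule. Within each library hepatocytes were ranked by a score of pericentral minus periportal genes that held no Mup gene, and split into 3 groups of equal size (401, 401 and 402 cells in control). In control, Mup11 was at 5284 CPM in pericentral, 419 in middle and 93.8 in periportal cells, a 56.3-fold (51.2 to 62.1) difference between the ends. Mup17 was at 3183, 70.5 and 26.9, a 119-fold (99.3 to 143) difference. Mup20 ran the other way, at 7350, 16072 and 20558, and so did Mup3, at 9230 (9120 to 9340), 11630 (11512 to 11749) and 12873.

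These positions were kept in all 3 libraries. With HFD, Mup11 was at 642, 183 and 69.9 in pericentral, middle and periportal cells and Mup17 at 347, 40.7 and 31.4, 9.19-fold (7.36 to 11.6) and 11.1-fold (7.96 to 15.7) higher at the pericentral end. With CCl4, Mup11 was at 27.5 and 2.33 in pericentral and periportal cells and Mup17 at 8.03 and 1.33, ratios of 11.8 (5.46 to 30.5) and 6.04 (2.04 to 24.2) that rest on 79 and 25 UMIs. Mup20 was 2.80-fold lower in pericentral than periportal cells in control, 2.99-fold with HFD and 1.66-fold with CCl4, and Mup3 1.39-fold, 2.60-fold and 1.44-fold. No processing alternative turned the direction of these 4 genes in any library, although that of Mup3 with CCl4 shrank to a log2 ratio of -0.011 when cells under 3% mitochondrial UMIs were let in. With those cells the HFD ratios shrank to 3.24-fold for Mup11 and 3.21-fold for Mup17 and to 1.83-fold and 1.47-fold lower for Mup20 and Mup3. Over the alternatives the pericentral ratio of Mup11 ranged from 35.02 to 56.6 in control and from 5.77 to 14.3 with CCl4, and that of Mup17 from 82.7 to 120.03 and from 3.21 to 8.25.

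Every cell of a library shares its free RNA, so the T cell level can be set against each group. In every library the T cell level of Mup11 and of Mup17 lay between the pericentral and the periportal value: for Mup11 in control it was 566, below the 5284 of pericentral and above the 93.8 of periportal hepatocytes. For Mup20 the T cell level was 5494 in control, below all 3 groups, 7060 with HFD, where pericentral cells were at 7098 (6936 to 7262), and 7055 with CCl4, above the 6585 of pericentral cells. In CPM, pericentral cells also held less Mup3 than T cells did with HFD (5038 against 7095) and CCl4 (13107 against 16675). In UMIs per droplet the order was the reverse. Mup3 had 5192 UMIs in 278 pericentral and 35694 in 2100 T cells with HFD. With CCl4 it had 34296 in 767 and 71082 in 1944. Mup20 with CCl4 was also higher per droplet in pericentral cells (17231 UMIs, against 30073 in T cells). The control pericentral cells are thus the hepatocyte group in which Mup11 and Mup17 stood furthest above T cells.

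Counted over members, the control comparison of pericentral with periportal cells had 5 of 9 members at least 2-fold higher (4.20% of all genes) and 1 at least 2-fold lower, Mup20 (2.79%). The higher 5 were Mup1, Mup7, Mup10, Mup11 and Mup17. With HFD, 2 of 7 members were higher (5.27%) and 3 lower (5.52%). Those were Mup11 and Mup17, and Mup3, Mup14 and Mup20. With CCl4, 3 of 6 were higher (1.25%), namely Mup1, Mup7 and Mup11, and 1 lower, Mup21 (0.754%). Mup10 in control and Mup11 with CCl4 were under 10 CPM in periportal cells and passed the minimum through the pericentral group alone. With cells under 3% mitochondrial UMIs let in, Mup14 with HFD and Mup21 with CCl4 were no longer 2-fold lower (ratios of 0.692 and 0.847), and Mup7 with CCl4 was 1.91-fold higher when cells were split at the median score. The score used values of the same cells, so these counts describe the groups. All members that were higher are near-identical in sequence, so they are not separate observations in any library. Of them only Mup11 and Mup17 are read as single genes. The family sum was lower in pericentral cells in each library, at 0.760, 0.383 and 0.662 of the periportal level. That sum leaves out reads shared by near-identical members, among them Mup11 and Mup17, which were higher in pericentral cells. With cells under 3% mitochondrial UMIs let in, the HFD and CCl4 ratios were 0.622 and 0.932.

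**Figure D3:**
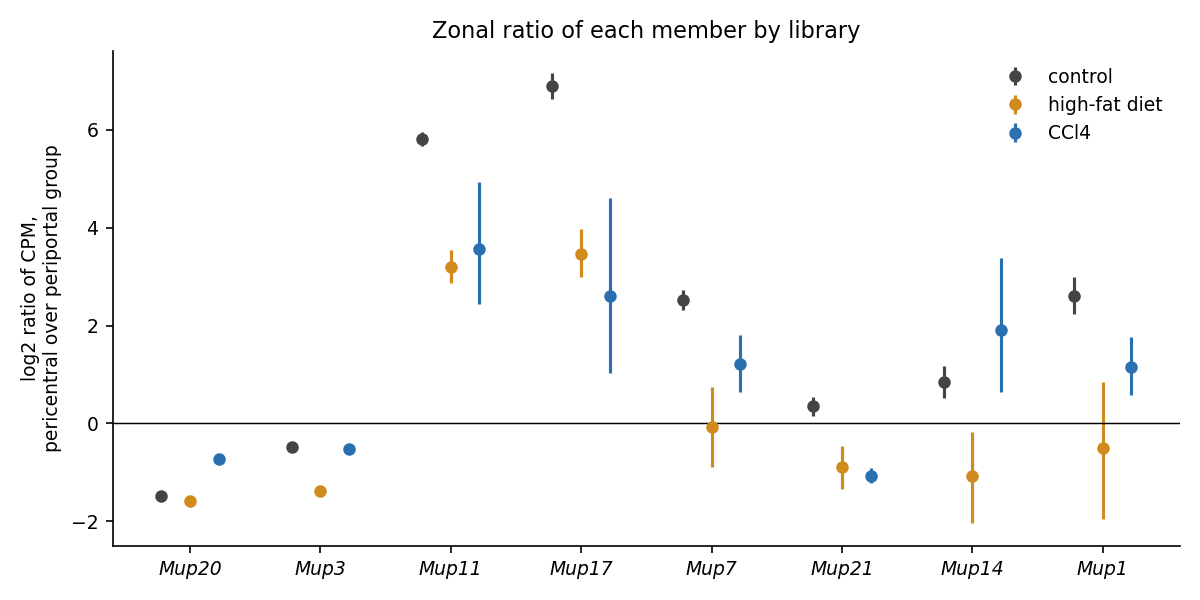
Log2 ratio of pericentral over periportal level for 8 members in each library (Mup2 and Mup10, with few UMIs, are not drawn), with exact 95% counting intervals. Mup11 and Mup17 lie above 0 and Mup20 and Mup3 below 0 in all 3 libraries, while Mup14 and Mup21 lie on different sides of 0 in different libraries, beyond their intervals. The middle group, in which control Mup21 was lowest, is not drawn.

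A finer split into deciles of the score showed where the switch lies. Along it control Mup11 was between 83.1 and 157 CPM in the first 5 deciles, 365 in the 6th, 2002 in the 7th and 6904 in the last. Mup17 stayed at or below 52.7 through the 6th decile and reached 6061 in the last. Mup20 went from 22686 to 6379 and Mup3 from 13611 to 8399.6. In the most pericentral decile the 4 genes were thus within 6061 to 8399.6, whereas in the most periportal decile they ranged from 16.1 to 22686. With HFD, Mup11 peaked at 829 in the 9th decile and was 367 in the last, where the summed pericentral genes were highest.

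**Figure D4:**
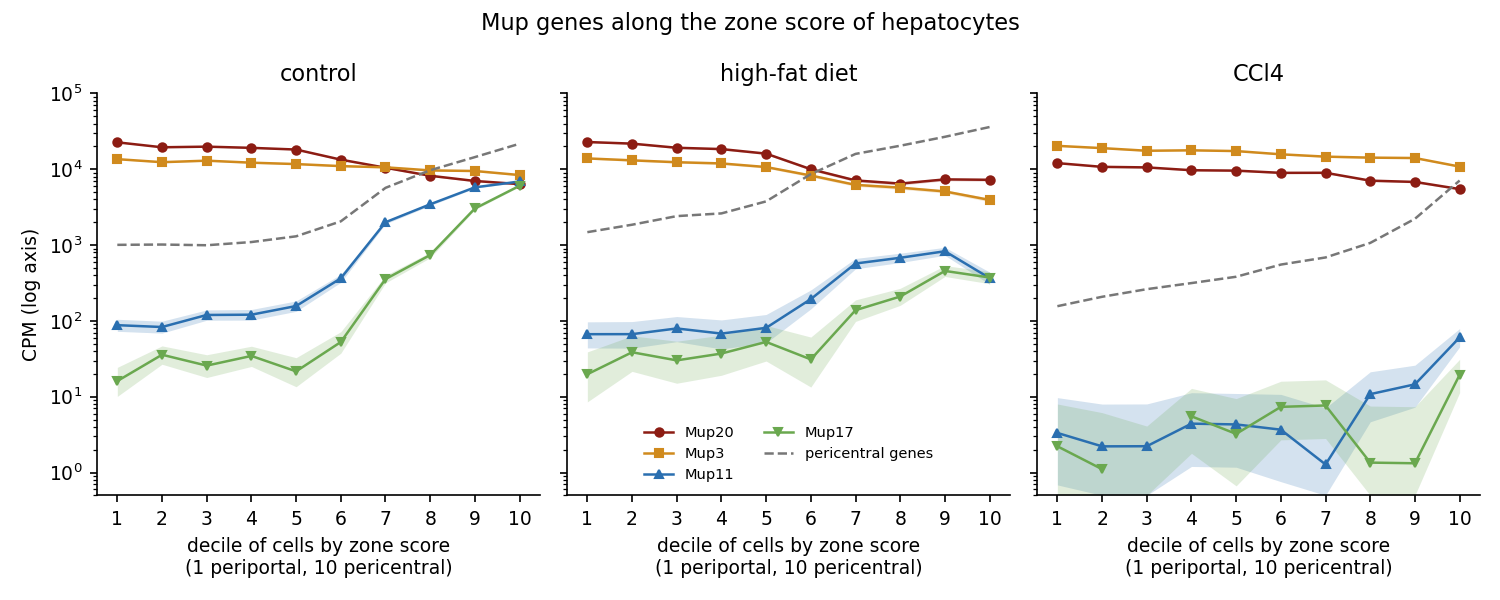
Level in CPM (log axis) of 4 members and of the summed pericentral genes (dashed) in deciles of hepatocytes ordered from periportal (1) to pericentral (10); shading is the exact 95% counting interval, drawn from 0.5 upward, and a decile with 0 UMIs has no point. Control Mup11 and Mup17 reach 6904 and 6061 in the last decile, while in HFD the same genes peak at 829 and 456 and with CCl4 at 60.6 and 19.4.

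The pericentral groups of the 3 libraries were not alike, since pericentral genes themselves differed. Their summed level in the pericentral group was 14938 CPM in control, 27139 with HFD and 3398 with CCl4. Cyp2e1, the enzyme that activates CCl4, was at 3128, 5638 and 849 there, and Glul, glutamine synthetase, at 708, 2554 and 133. Periportal genes summed to 4419, 3389 and 14892 CPM in the same groups, so the pericentral group of the CCl4 library held more periportal than pericentral RNA. Only 0.304% of CCl4 hepatocytes had 2% or more of their UMIs in pericentral genes, against 6.98% in control and 25.8% with HFD.

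Cells were therefore also compared at a like content of pericentral genes, in ranges set after the zone values were seen. At 2% or more, Mup11 was at 7026 (6817 to 7241) CPM in 84 control cells, 609 (557 to 665) in 216 HFD cells and 257 (103 to 529) in 7 CCl4 cells. Between 0.5 and 2%, it was at 4399 (4320 to 4479) in 358 control cells, 416 (371 to 466) in 221 HFD cells and 79.2 (57.3 to 107) in 145 CCl4 cells. Mup17 in that range was at 2054, 109.9 and 27.6. The lower Mup11 and Mup17 with HFD and CCl4 were thus present in cells of like pericentral content, without overlap of the intervals at 0.5 to 2%. Like content need not mean like position in the lobule, since the pericentral genes themselves differed between libraries. Free RNA also enters it: T cells held 327 CPM of Cyp2e1 in control, 1736 with HFD and 242 with CCl4. In the same range Mup20 was at 9175 in control, 9038 with HFD and 5447 with CCl4, and Mup3 at 9740 (9622 to 9859), 7502 and 10194.

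**Figure D5:**
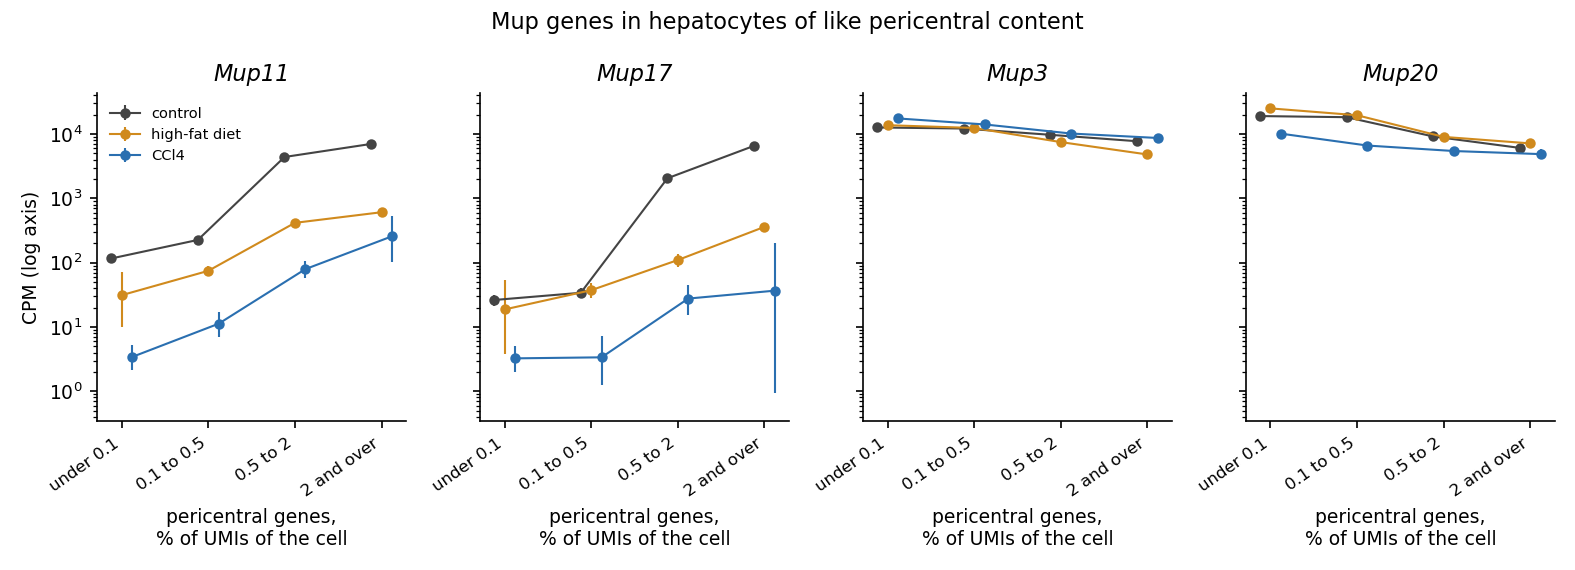
Level in CPM (log axis) of 4 members in hepatocytes grouped by the percent of their UMIs in pericentral genes, with exact 95% counting intervals, 1 line per library. Mup11 and Mup17 are lower with HFD and CCl4 than in control at 0.5 to 2% and at 2% and over, whereas Mup3 and Mup20 differ less between libraries.

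Over single cells, Mup11 and Mup17 went together and Mup20 went against Mup11 in control. Spearman's rho of their shares of each cell was 0.58 for Mup11 and Mup17 and -0.56 for Mup20 and Mup11 over 1204 hepatocytes, beside 0.16 and 0.17 over 1719 T cells. For Mup20 and Mup3 it was 0.50 in hepatocytes and 0.49 in T cells. The cells share a library and their depth enters both shares, so these are descriptions.

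Genes of the growth hormone pathway were taken from a list of 14, of which 12 passed the minimum with HFD and 11 with CCl4. With HFD 2 were at least 2-fold higher and 3 at least 2-fold lower than in control, and with CCl4 2 and 2. The receptor Ghr was at 353 CPM in control, 458 with HFD and 710.4 with CCl4, 2.01-fold (1.93 to 2.10) above control. The kinase Jak2 was at 12.0, 8.65 and 9.28, the transcription factor Stat5a at 16.3, 11.7 and 9.17, and Stat5b at 15.7, 33.4 and 50.5. All 3 were below their T cell levels in every library, which for Stat5b were 107, 67.6 and 60.3. Among feedback genes that STAT5 is known to induce, Socs2 was at 117 in control, 25.6 with HFD and 14.3 with CCl4, 4.57-fold and 8.16-fold lower, and Cish at 24.95, 16.99 and 22.9. Socs1, an inhibitor of JAK kinases, was at 21.2, 1.85 and 2.47. Igf1, the main hepatic target of growth hormone, was at 1245, 943 and 1479, and Bcl6, a transcriptional repressor, at 10.4, 31.5 and 6.93. Whether any of these genes bears on the levels of the members was not tested.

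Of 17 hepatocyte transcription factors, 3 were at least 2-fold higher and 3 lower with HFD among 16 that passed, and 4 and 2 among 17 with CCl4. Hnf4a was at 182, 132.8 and 170.4 CPM in control, HFD and CCl4, Cebpa at 213, 299 and 275 and the glucocorticoid receptor Nr3c1 at 81.5, 85.2 and 107. The largest differences with HFD were those of Nr1i3, the receptor CAR (18.7 to 74.4), Cebpb (1379 to 439) and Foxa1 (9.12 to 25.6). With CCl4, Cebpb was at 499 and Foxa3, at 161 in control, was at 65.8. Onecut1, which binds the element printed above and is named here after its values were seen, was at 17.04 in control, 6.18 with HFD and 19.6 with CCl4. Its part in the levels of the members was not tested.

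Other male-biased liver genes did not share one direction with HFD, where 5 of 16 were at least 2-fold higher and 2 lower. Elovl3 went from 14.2 to 61.5 CPM, Cyp4a12b from 59.8 to 251 and Serpina1e from 10778 to 2914. With CCl4, 9 of 14 were lower and 3 higher, and 3 of the 9 were under 10 CPM with CCl4 and passed through the control library alone. Of these 3, Cyp4a12a, a fatty acid hydroxylase, was at 6.46 CPM with CCl4 against 174 in control, while Cyp4a12b had 3 UMIs (ratio to control 0.00590, 0.00121 to 0.0173) and Ugt2b38 had 2 (0.0107, 0.00129 to 0.0391). Of 16 female-biased genes only 1 passed the minimum with HFD, Acot3 (2.61 to 25.6), and 2 with CCl4, Cyp2b9 (0.931 to 97.5) and Cyp17a1 (5.77 to 45.2). All 3 were under 10 CPM in control and passed through the other library alone, so their direction was set by the minimum. Several of these genes have close paralogs, so their counts carry the same uncertainty as those of the Mup genes.

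Among 13 other lipocalins, the protein family to which the members belong, 8 passed, of which 0 were higher and 4 lower with HFD and 0 and 5 with CCl4. Lcn2, which binds bacterial siderophores, was at 2982 CPM in control, 32.4 with HFD and 37.6 with CCl4. Orm1 was at 5443, 1633 and 866 and Orm2 at 742, 73.8 and 19.5, and Obp2a had 2 UMIs with HFD (ratio to control 0.0285, 0.00343 to 0.104). Lcn2, Orm1 and Orm2 are also acute-phase genes. In that list 15 of 16 were at least 2-fold lower in both comparisons, led by Lcn2 with Saa2 (11482 to 275) and Saa3 (413 to 9.88) with HFD and with Saa2 (70.3) and Saa1 with CCl4. The control library thus carried an acute-phase pattern, whose part in the difference of Mup11 and Mup17 was not tested. Of 20 secreted proteins, 1 was higher and 2 lower with HFD (Apoe 6145 to 12429, Hpx 10290 to 4518, Fgb 14795 to 6756) and 3 and 3 with CCl4 (Ttr 5246 to 18351, Fgb to 5440.3, Apoe to 15528).

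Over the 9 sums of 3 zones and 3 libraries, the genes whose log2 level was most like that of the summed members were, among 2483 genes with a mean of at least 50 CPM, Atrx (Pearson's r 0.97), Slc17a2 and Golga4 (both 0.92), Ero1b and Cyp3a13 (both 0.91). The sum ran from 13245 in pericentral HFD to 34618 in periportal HFD cells. Sums of one library share its depth and free RNA. Among members the same r was 0.76 for Mup3 and 0.75 for Mup20, but -0.29 for Mup11 and -0.32 for Mup17. The other members ran from -0.54 for Mup10 to 0.35 for Mup21. Mup3 and Mup20 make up most of the sum, so a high r with it was largely set in advance.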

How the data were processed

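The deposited values are raw UMI counts per gene and barcode that the authors made with Cell Ranger (version 7.2.0 per the file headers) from 10x 3′ libraries, and they are not normalized. The study's methods name mm10 and the submitters' processing notes GRCm39, and the annotation release and the handling of intronic reads are not given in the sources used here, so positions come from GENCODE M21 and not from the files. The members and gene lists were chosen with earlier results of these data known.

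Scripts in Python 3.11.15 (scanpy 1.11.5, scipy 1.17.1, python-igraph 0.11.9 and biopython 1.88) clustered the cells jointly on 2000 variable genes without Mup rows (30 components, Leiden resolution 1.0). Clusters were named from at least 3 raised markers, by a rule set after the clusters were seen. Scrublet marked 2, 1 and 2 barcodes and so did not work as a doublet filter; leaving out the highest 8% of scores was tried instead. UMIs were summed over cells of each library. Shares of cells were computed after thinning to 1000 UMIs. Exact Poisson, conditional binomial and Clopper-Pearson intervals were used, with a floor of 3 UMIs, and no test was made. The call rule was a 2-fold difference. Deciles of the zone score and ranges of pericentral content were set after the data were seen. Intervals, calls and thinning were tested on simulated data. All 10 members are named, and of each list the 3 genes with the largest log2 ratio and 11 preset ones, except 1 item that is not reported here. Total depth was 49613255, 34985786 and 34061186 UMIs.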

Additional observations from a re-analysis of the deposited data

Results flagged for a closer look

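Mup14 and Mup21 had opposite zonal directions in different libraries, each with a counting interval clear of 0, and the difference between libraries was not tested. The log2 ratio of pericentral over periportal level of Mup14 was 0.85 in control and 1.92 with CCl4 but -1.07 with HFD, on 15 pericentral and 39 periportal UMIs in HFD and on a transcript end with 0 distinctive windows. That of Mup21 was 0.35 in control but -0.89 with HFD and -1.07 with CCl4. Control Mup21 did not run 1 way, at 133 CPM in pericentral, 79.3 in middle and 104 in periportal cells. By deciles it was at 149.3 (129.5 to 171.3) in the most periportal and 112.2 (92.0 to 135.4) in the most pericentral, with overlapping intervals. Its control direction thus depended on the split.

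Mup rows outside the 10 members also carried signal, although 12 of the 39 are genes and 27 pseudogenes and together they held 0.737%, 0.400% and 0.244% of the Mup UMIs of hepatocytes in control, HFD and CCl4. The row with the most UMIs, Mup12, was at 76.3, 22.5 and 28.1 CPM, Mup16 at 70.5, 18.5 and 16.3 and Mup9 at 53.3, 22.9 and 6.11. The floor of 3 UMIs stood at 0.279, 0.927 and 0.353 CPM. All 3 had higher CPM than Mup2 and Mup10 in every library. With CCl4 the intervals of Mup9 (4.56 to 8.01) and Mup10 (2.87 to 5.72) overlapped. At the transcript end, 16.1% of the windows of Mup12, 20.9% of Mup16 and 33.4% of Mup9 were distinctive. The share was 0 of 311 for Mup2 and Mup10, whose counts can thus be too low. This order therefore does not rank these genes by expression. T cells held 33.2, 19.9 and 21.6 CPM of Mup12.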

How the results depend on the processing

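Values are log2 ratios of the summed members, for HFD over control (main -0.30), CCl4 over control (-0.22), pericentral over periportal in control, HFD and CCl4 (-0.40, -1.39, -0.60) and T cells over hepatocytes in the same order (-1.48, -0.74, -0.10). Without the lower mitochondrial limit CCl4 over control turned to 0.051, HFD over control was -0.24, the zonal ratio was -0.68 in HFD and -0.10 in CCl4, and T cells over hepatocytes were -1.45, -0.76 and -0.33. This setting held 1436 control, 6259 HFD and 7545 CCl4 cells, since a low-mitochondrial cluster with 3405 control cells got no name. Its ratios between libraries, that of Mup21 below included, thus compare unlike sets of cells. With at least 5% mitochondrial UMIs the CCl4 T cell ratio turned to 0.050, the HFD T cell ratio was -0.51, the library ratios -0.53 and -0.38 and the zonal ratios -0.48, -1.20 and -0.51. With each library clustered alone CCl4 over control was -0.23 and T cells over hepatocytes -1.94 in control. Without the highest doublet scores the control zonal ratio was -0.38 and the T cell ratios -2.05, -0.81 and -0.15. Scaled outside abundant genes the library ratios were -0.25 and -0.13, the zonal ratios -0.52, -1.50 and -0.62 and the T cell ratios -1.83, -0.95 and -0.26. With at least 2000 UMIs the CCl4 zonal ratio was -0.62. With the T cell CPM subtracted from the hepatocyte CPM, the library ratios were -0.98 and -3.53 and the control zonal ratio -0.63. Pericentral HFD and CCl4 cells were left at -1388 and -4091 CPM, so no ratio is given for them. Per droplet these cells held more than T cells. With HFD they had 13649 UMIs in 278 cells against 73621 in 2100 T cells. With CCl4 they had 52305 in 767 against 102658 in 1944. Halved by score, the zonal ratio was -1.20 in HFD and -0.44 in CCl4. Without Cyp genes in the score it was -0.42 in control. For T cells with a Cd3 UMI the HFD and CCl4 ratios were -0.76 and -0.12. UMIs per cell, added after the data were seen, gave -1.50 and -1.49, and above T cells -2.00 and -2.48. Mup21 with HFD turned to 0.23 without the mitochondrial limit. At a minimum of 50 CPM 3 members were lower with CCl4 and 0 were higher in pericentral CCl4 cells. Without a minimum 4 members were higher in pericentral HFD and 5 in pericentral CCl4 cells. That HFD count took in Mup2, with 1 pericentral and 0 periportal UMIs, and Mup10, with 10 and 5. The share of all genes at these other minimums is not given here. These counts thus show only that the number of members called moved with the minimum. The cause of these shifts was not tested. Mup11 was 3.58-fold to 6.16-fold lower with HFD and 124-fold to 162-fold lower with CCl4 over the alternatives in cell selection and scaling, and Mup17 3.99-fold to 9.02-fold and 134-fold to 293-fold. These ranges leave out UMIs per cell (14.3, 1.10 and 0.0395 for Mup11 in control, HFD and CCl4) and the T cell level taken off. Leiden resolution 0.5 and keeping Mup rows for clustering moved none of the family sums beyond their intervals. No paired analysis was possible because each condition has 1 library, and no library could be left out. Depth limits the CCl4 values of Mup11 and Mup17, which rest on 91 and 42 UMIs.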

Other observations

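Cell types other than T cells also held the family's RNA below the hepatocyte level in control, where T cells were at 10727 CPM. In control the summed members were at 14616 CPM in B cells, 9383 in NK cells, 7524 in monocytes and macrophages, 8993 in endothelial cells and 4728 in cholangiocytes. Per droplet these classes held 37.0, 25.2, 33.2, 38.4 and 32.2 UMIs of the members, beside 30.5 in T cells and 267 in hepatocytes. With CCl4 the same classes held 57.4, 53.7, 49.0, 69.9 and 62.7 UMIs per droplet, beside 52.8 in T cells and 95.2 in hepatocytes.

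Hepatocyte-like droplets with less than 3% mitochondrial UMIs numbered 232 in control, 5423 with HFD and 5243 with CCl4, so that in the last pair they outnumbered the hepatocytes described above. The control number leaves out a cluster of 3405 control cells, median 0.335% mitochondrial UMIs, that the naming rule left without a name. At Leiden resolution 0.5 the like cluster, with 3425 control cells, was named hepatocyte, as were the largest low-mitochondrial clusters of HFD and CCl4. The control values here thus describe only a part of such droplets. In the named droplets the Mup11 level was 3218 CPM in control, 289 with HFD and 16.6 with CCl4, the same order as in hepatocytes. That of Mup17 was 1832, 105 and 9.07. Mup3 was at 8365, 11190 and 22016 and Mup20 at 9413, 12955 and 10802. With CCl4 these droplets held 33325 CPM of the summed members, above both hepatocytes (25750) and T cells (24082).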
